A study of Mus musculus with 4 samples.

Results

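The collagen chains of adult bone marrow mesenchymal stroma cells (MSCs) were examined in the deposited table of counts. Every gene whose symbol is Col, a number, a and a number was taken, which gave 44 chains of the 56980 genes listed. They were placed in 8 structural classes from general knowledge of the family: 11 fibrillar, 9 network, 9 FACIT, 4 transmembrane, 6 beaded filament, 2 multiplexin, 1 anchoring and 2 other chains. A further list of 7 cartilage chains (Col2a1, Col9a1, Col9a2, Col9a3, Col10a1, Col11a1 and Col11a2) runs across the fibrillar, FACIT and network classes. The classes thus describe the proteins and use no measured value.

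The samples are 1 library from each of 4 male wild-type C57BL/6J mice, inbred in-house and aged 14 weeks. From the digested femurs of each mouse, 100 cells that carried CD51 and PDGFRa but not CD45, Ter119, CD31 or Sca1 (CD45- Ter119- CD31- CD51+ PDGFRa+ Sca1-) were sorted by flow cytometry and turned into full-length cDNA from an oligo-dT primer. All 4 libraries form a single group, so that no condition was compared and each comparison below is between chains within the same mouse. In libraries of pooled cells a low level can come from few cells that make a transcript or from little transcript per cell, and these cannot be told apart.

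Collagens are extracellular matrix proteins whose chains wind around each other in a triple helix. The helix needs glycine, the smallest amino acid, at a regular spacing, so that each chain is built from Gly-X-Y triplets. Fibrillar chains have a long unbroken helix and pack into the fibrils of bone, tendon, skin and cartilage. Network chains form sheets such as the basement membrane, FACIT chains sit on the surface of fibrils, transmembrane chains are anchored in the cell membrane, and beaded filament chains form fine microfibrils around cells. Type I collagen is the main protein of bone matrix, and types II, IX, X and XI are known as the collagens of cartilage.

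The triplet is visible in the coding sequence. Whole exons of 7 chains with high levels in their class are given here from the GENCODE M21 transcripts, in the direction of the gene. For the first 5 it is the first exon of 54 bases inside the longest run of triplets, for Col13a1 the first exon that lies wholly inside its longest run, and for Col4a1 the exon in which its longest run ends. Capitals mark glycine codons (GGN) that follow each other at a spacing of 3 codons, in rows of at least 4. They are exon 8 of Col1a1 on the plus strand (GRCm38, chr11:94939904-94939957), exon 8 of Col1a2 on the plus strand (chr6:4515481-4515534), exon 10 of Col5a2 on the minus strand (chr1:45422386-45422439), exon 15 of Col11a1 on the plus strand (chr3:114108281-114108334), exon 46 of Col22a1, a FACIT chain, on the minus strand (chr15:71857251-71857304), exon 28 of Col13a1, a transmembrane chain, on the minus strand (chr10:61863941-61864003), and exon 9 of Col4a1, a network chain, on the minus strand (chr8:11244486-11244569). All 7 are coding throughout.
Col1a1: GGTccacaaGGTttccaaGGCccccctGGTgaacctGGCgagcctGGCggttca
Col1a2: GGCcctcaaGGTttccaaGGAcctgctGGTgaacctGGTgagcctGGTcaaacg
Col5a2: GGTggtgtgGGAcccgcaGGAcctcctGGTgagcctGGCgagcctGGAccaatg
Col11a1: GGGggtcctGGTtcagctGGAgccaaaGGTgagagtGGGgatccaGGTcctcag
Col22a1: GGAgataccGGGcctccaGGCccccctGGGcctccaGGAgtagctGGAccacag
Col13a1: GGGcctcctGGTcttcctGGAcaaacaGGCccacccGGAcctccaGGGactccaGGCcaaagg
Col4a1: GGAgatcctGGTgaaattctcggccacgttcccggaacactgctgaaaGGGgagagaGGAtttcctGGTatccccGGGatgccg

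The first 5 of these exons are 54 bases long and hold exactly 6 triplets each, beginning with a whole glycine codon. Exon 8 of Col1a1 and exon 8 of Col1a2 have the same base at 42 of 54 positions (77.8%), where the Col1a1 and Col11a1 exons shown have it at 26 of 54. The Col4a1 exon shows the end of its longest run: 2 triplets are followed by 10 codons with no regular glycine, after which a new run begins. This contrast held for the whole classes. The longest unbroken run had a median of 338 triplets in the 11 fibrillar chains (range 216 to 344), against medians of 45 in the network chains (39 to 66), 57 in the FACIT chains (32 to 113) and 43.5 in the transmembrane chains (40 to 56). Fibrillar chains carried their triplets in 2 or 3 runs of at least 10, network chains in 6 to 19. Of the internal coding exons of all protein-coding genes 14.3% have a length that is a multiple of 9 bases, the length of a triplet, compared with 83.9% in fibrillar, 70.7% in transmembrane, 55.1% in FACIT and 47.2% in network chains. Exons of exactly 54 bases made up 48.6% of these exons in fibrillar chains, 4.23% in network chains and 0.732% in all protein-coding genes. Col8a1, Col8a2 and Col10a1 have no internal coding exons, so the network shares rest on the type IV chains alone.

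The libraries held between 22738604 and 43545349 counts on genes. Levels are given in TPM, a unit in which each count is corrected for the merged exon length of the gene and all libraries have the same sum of 1000000. The genes of the sort antigens followed the gate in large part. Itgav (CD51) had 12.9 to 18.1 TPM and Pdgfra 30.7 to 48.2 TPM, Ptprc (CD45) and Pecam1 (CD31) stayed at or below 0.26 TPM, and Ly6a (Sca1), which the gate excludes, had 8.95 TPM in mouse 2 and 11.6 TPM in mouse 4. The MSC marker Cxcl12, a chemokine of the stem cell niche, had 983 to 4329 TPM. The osteoblast genes Bglap, Ibsp, Sp7 and Alpl were far above 1 TPM in every mouse and summed to 122108 ± 38198 TPM (SD, n = 4), so the cells labelled MSCs also carried the transcripts of bone-forming cells. Transcripts of the erythroid genes Hba-a1, Hbb-bs and Alas2 were found although the gate left out Ter119+ cells, and they summed to 3725, 21.1, 1298 and 270 TPM in mice 1, 2, 3 and 4. Macrophage markers had no counts, and the 4 endothelial markers summed to at most 0.235 TPM.

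The majority of collagen chains were transcribed, and a few fibrillar chains made up nearly all collagen transcripts. With the cutoff used in the study, a median above 1 TPM over the 4 mice, 25 of the 44 chains were expressed (56.8%), where 22.9% of all genes with a length and 44.2% of protein-coding genes were. Above 1 TPM in every mouse were 20 chains (45.5%), against 15.4% of all genes and 30.1% of protein-coding genes. All chains together took 4.58%, 3.82%, 3.27% and 4.30% of TPM in mice 1, 2, 3 and 4 (mean 3.99% ± 0.574, SD). Without the correction for gene length, the same chains took 10.9% to 16.4% of the counts. Of the 44 chains, 7 had a median above 100 TPM, 10 lay between 10 and 100, 8 between 1 and 10, and 19 at or below 1. The plot of each chain by class shows these levels mouse by mouse.

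**Figure D1:**
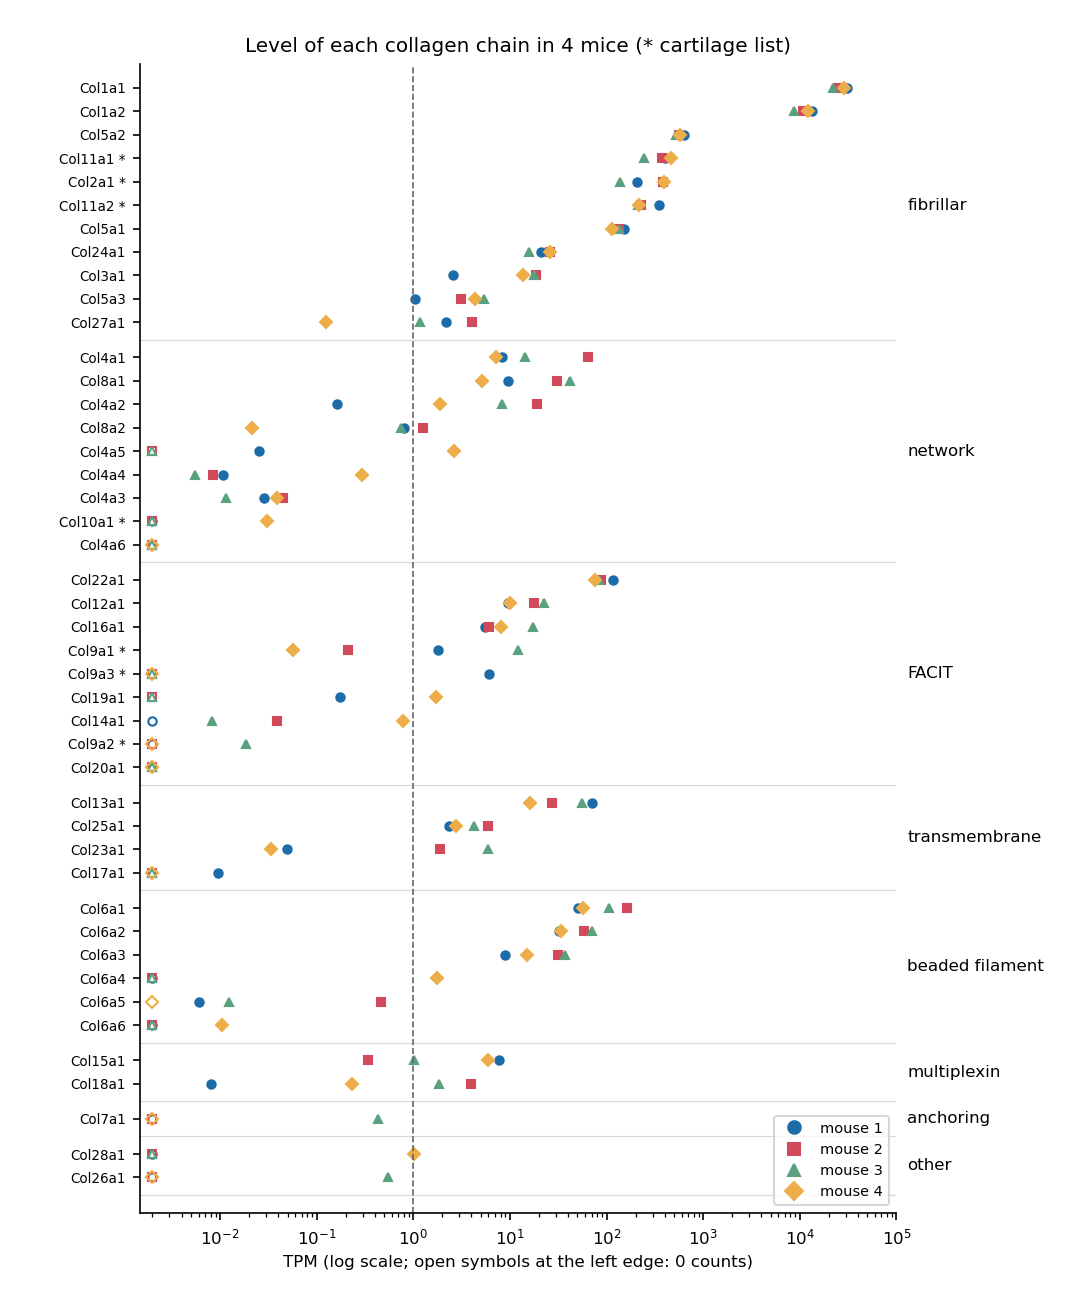
Level of each of the 44 collagen chains in TPM on a log scale (x axis), with 1 symbol per mouse and chains grouped by structural class, where an asterisk marks the cartilage list, the dashed line is 1 TPM and open symbols at the left edge are 0 counts. The symbols of Col1a1, Col1a2 and Col5a2 lie close together, whereas those of chains near 1 TPM, such as Col18a1 with 0.0081 TPM (1 count) to 3.93 TPM, spread widely.

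Type I collagen dominated. Col1a1, which encodes the α1 chain of type I collagen (GRCm38, chromosome 11, 94936224 to 94953042), had 30450, 25093, 22235 and 28725 TPM in mice 1 to 4, the fifth highest median of all genes. Col1a2, for the α2 chain (chromosome 6, 4504814 to 4541544), had 13268, 10869, 8724 and 12197 TPM. Both were highest in mouse 1 and lowest in mouse 3, and the highest and lowest mouse differed by 1.37-fold for Col1a1 and 1.52-fold for Col1a2. The 2 chains together made up 94.8% ± 0.597 of all collagen TPM (SD, n = 4), and the other 42 chains summed to 2049 ± 200 TPM.

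The main chains of type V collagen, which joins type I in the same fibrils and limits their width, varied little between mice. Col5a2 had 637, 564, 525 and 573 TPM, a coefficient of variation of 8.05%, the lowest of all chains with a median above 1 TPM. Col5a1 had 152, 136, 133 and 113 TPM, with a coefficient of variation of 12.1%. Col5a3, a further type V chain, was much lower and less steady, with 1.05, 3.10, 5.39 and 4.35 TPM.

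The fibrillar chains known from cartilage had medians between those of Col5a2 and Col5a1. Col11a1, for a chain of type XI collagen, had 406, 371, 245 and 468 TPM. Col2a1, for type II collagen, the main protein of cartilage fibrils, had 208, 386, 137 and 395 TPM. Col11a2 had 345, 228, 214 and 218 TPM, with mouse 1 apart from the other mice. Col2a1 was thus high in mice 2 and 4 and low in mice 1 and 3, and Col11a2 did not share this order.

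The remaining fibrillar chains were lower. Col24a1, a minor fibrillar chain known from developing bone, had 20.9, 25.9, 15.9 and 26.2 TPM. Col3a1, the chain of type III collagen of reticular fibres and soft tissue, had 2.58, 18.5, 17.6 and 13.6 TPM. Col27a1, known from cartilage, had 2.16, 4.10, 1.19 and 0.126 TPM. All 11 fibrillar chains had a median above 1 TPM, and 10 of them were above 1 TPM in every mouse, Col27a1 in mouse 4 being the exception. Col3a1 lies next to Col5a2 on chromosome 1, 24614 bases away with no protein-coding gene between them, and the level of Col5a2 was higher than that of Col3a1 in 4 of 4 mice by 5.61 ± 1.26 on the log2(TPM + 1) scale (SD; exact two-sided sign-flip permutation test, p = 0.125, adjusted p = 0.148 over 13 chain pairs).

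In the network class 3 of 9 chains were expressed, against 44.2% of protein-coding genes. Col4a1, for the α1 chain of basement membrane collagen, had 8.24, 63.7, 14.4 and 7.25 TPM. Col4a2, its partner in the basement membrane trimer, had 0.163, 19.0, 8.29 and 1.87 TPM. Both were highest in mouse 2, and Col4a2 rested on 19 counts in mouse 1. Col8a1, for a short-chain collagen known from vessels and the cornea, had 9.58, 30.4, 41.5 and 5.11 TPM, and its partner Col8a2 had 0.810, 1.26, 0.748 and 0.0216 TPM. The value of Col8a2 in mouse 4 rested on 1 count. Of the other type IV chains, Col4a5 had 2.64 TPM in mouse 4 and at most 3 counts in the other mice, and Col4a3, Col4a4 and Col4a6 had at most 0.292 TPM in any mouse. Col10a1, the marker of hypertrophic cartilage, had 1 count in all libraries together.

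Of the FACIT chains 4 of 9 were expressed, near the share of 44.2% in protein-coding genes. Col22a1, known from the junctions of muscle and tendon, was the highest, with 117, 88.3, 82.6 and 76.2 TPM and a coefficient of variation of 19.9%. Col12a1, which binds type I fibrils, had 9.55, 17.6, 22.5 and 10.1 TPM, whereas the related Col14a1 stayed below 1 TPM in every mouse. Col16a1 had 5.54 to 17.2 TPM. The chains of type IX collagen, which coat type II fibrils, were erratic: Col9a1 had 1.82, 0.213, 12.2 and 0.0573 TPM, Col9a3 had 6.09 TPM in mouse 1 and no counts in the others, and Col9a2 had 1 count in all. Col19a1 had 0.173 TPM in mouse 1, 1.71 TPM in mouse 4 and no counts in mice 2 and 3. Col20a1 had no counts in any mouse, which allows a level of up to 0.0332 to 0.0565 TPM (3 counts per library, counting error only).

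Of the 4 transmembrane chains, 2 were above 1 TPM in every mouse, against 30.1% of protein-coding genes. Col13a1, known from cell adhesion sites and the neuromuscular junction, had 70.7, 27.4, 55.9 and 16.1 TPM. Col25a1, known from neurons, had 2.33, 5.96, 4.26 and 2.80 TPM. Col23a1 had 0.0495, 1.88, 5.90 and 0.0337 TPM, so mice 2 and 3 lay above 1 TPM and mice 1 and 4 far below. The low values rested on 5 counts in mouse 1 and 2 in mouse 4. Col17a1, the hemidesmosome collagen of epithelia, had 1 count in all.

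In the beaded filament class the chains of the common type VI trimer were expressed in every mouse. Col6a1 had 51.2, 162, 106 and 57.4 TPM, Col6a2 had 32.6, 57.8, 70.0 and 33.8 TPM, and Col6a3 had 8.82, 31.1, 36.9 and 15.2 TPM. All 3 were higher in mice 2 and 3 than in mice 1 and 4. The later-described chains Col6a4, Col6a5 and Col6a6 were at most at 0.468 TPM, apart from Col6a4 at 1.75 TPM in mouse 4. The multiplexins of basement membrane zones went in opposite directions between mice: Col15a1 had 7.67, 0.340, 1.01 and 5.94 TPM, and Col18a1, the source of endostatin, had 0.0081, 3.93, 1.84 and 0.234 TPM. Col18a1 rested on 1 count in mouse 1 and 17 in mouse 4, and Col15a1 on 24 in mouse 2. Col7a1, which forms the anchoring fibrils of skin, had 0.428 TPM in mouse 3 and no counts elsewhere. Col26a1 had 0.552 TPM in mouse 3 only, and Col28a1 had 1.01 TPM in mouse 4 only.

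Among the 5 classes compared (fibrillar, cartilage, FACIT, network and transmembrane), fibrillar chains had by far the highest summed level, followed by cartilage and FACIT chains. Fibrillar chains summed to 45493, 37700, 32252 and 42733 TPM in mice 1 to 4, or 99.0% ± 0.447 of collagen TPM (SD, n = 4). Cartilage chains, 3 of which are counted among the fibrillar chains too, summed to 967, 986, 608 and 1081 TPM. FACIT chains summed to 140, 112, 134 and 97.1 TPM, network chains to 18.9, 114, 65.0 and 17.3 TPM, and transmembrane chains to 73.1, 35.2, 66.0 and 18.9 TPM. Beaded filament chains, which were not among the compared classes, summed to 92.6, 251, 213 and 108.2 TPM and thus lay above FACIT chains in mice 2, 3 and 4. Without Col1a1 and Col1a2, the fibrillar share was 80.5% ± 6.82 and the cartilage share 44.1% ± 7.56 (SD, n = 4).

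**Figure D2:**
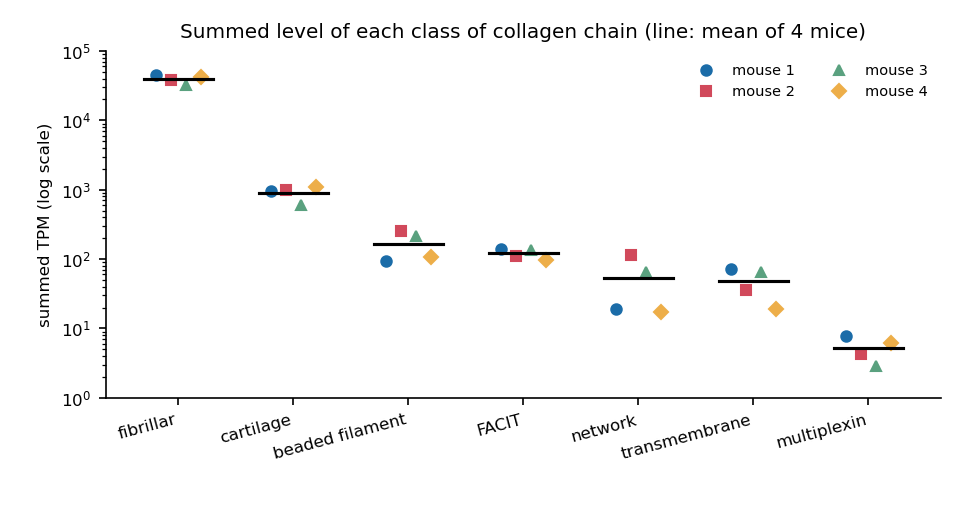
Summed TPM of the chains of each class on a log scale (y axis), with 1 symbol per mouse and a line at the mean of 4 mice, for 6 structural classes and the overlapping cartilage list. Fibrillar chains lie between 32252 and 45493 TPM in every mouse, cartilage chains between 608 and 1081 TPM, and the network and transmembrane symbols overlap.

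Within mice, 8 of the 10 differences between the 5 classes had the same direction in 4 of 4 mice. Fibrillar chains exceeded cartilage chains by 5.46 ± 0.221, FACIT chains by 8.34 ± 0.357, transmembrane chains by 9.81 ± 0.954 and network chains by 9.91 ± 1.48 in log2(summed TPM + 1) (mean ± SD of 4 mice). Cartilage chains exceeded FACIT chains by 2.88 ± 0.553, and FACIT chains exceeded transmembrane chains by 1.47 ± 0.636 on the same scale. The 3 fibrillar chains of the cartilage list count in both sums, so the fibrillar sum could hardly fall below the cartilage sum. With cartilage chains taken out of the other classes, fibrillar minus cartilage was 5.43 ± 0.227 and FACIT minus cartilage was -2.94 ± 0.490. With 4 mice the exact two-sided sign-flip permutation test cannot give a p below 0.125, and each of these 8 differences reached it (adjusted p = 0.156 over 10 pairs). FACIT chains were above network chains in mice 1, 3 and 4 (mean log2 difference 1.57 ± 1.31 in size; exact permutation p = 0.25) but not in mouse 2, where the 2 classes had nearly the same level. Network and transmembrane chains did not differ beyond the spread between mice, with a difference of -0.10 ± 1.46 for network minus transmembrane (exact permutation p = 0.625), and this direction turned when mouse 1 was left out, to 0.51. Without the highest chain of each class, network minus transmembrane turned to 1.94, and the other 9 differences kept their direction. By the median chain, FACIT minus transmembrane was -1.22 and transmembrane minus cartilage was 0.10.

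Chains that form a common trimer or are closely related differed in how closely their levels kept step. Of the 16 pairs chosen, 13 had a chain above the cutoff and were compared. The ratio of Col1a1 to Col1a2 TPM was 2.30, 2.31, 2.55 and 2.36, so the highest and the lowest mouse differed by 1.11-fold. The height of this ratio depended on the length given to Col1a2, whose merged exons span 12426 bases. With the longest transcript of each gene in place of merged exons, it was 1.09, 1.10, 1.21 and 1.12, and Col1a1 remained the higher in 4 of 4 mice. The ratio of Col5a1 to Col5a2 was 0.239, 0.240, 0.254 and 0.197, a 1.29-fold range, with Col5a2 higher in 4 of 4 mice under both lengths. Each of these pairs gave an exact permutation p of 0.125, the smallest that 4 mice allow (adjusted p = 0.148).

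The type XI, VI and IV pairs were looser. Col11a1 was higher than Col11a2 by 0.56 ± 0.431 in log2(TPM + 1) in 4 of 4 mice, with ratios between 1.14 and 2.15. Col2a1 and Col11a2 had no common order, with Col2a1 the higher in mice 2 and 4 only (0.06 ± 0.863; exact permutation p = 0.75). Col6a1 was above Col6a2 in 4 of 4 mice with ratios of 1.57, 2.80, 1.52 and 1.70, but with the longest transcript as gene length these became 0.989, 1.76, 0.956 and 1.07, so that their order is not fixed. The ratio of Col4a1 to Col4a2 was 50.5, 3.36, 1.74 and 3.87, a 29.0-fold range. This range was set by mouse 1, where Col4a2 had 19 counts, and in the other mice the ratio lay between 1.74 and 3.87. The 2 genes lie head to head on chromosome 8 and their annotated exons overlap by 22 bases at the starts. Col15a1 and Col18a1, which form separate trimers, had no common order, with log2 differences of 3.10 and 2.49 in mice 1 and 4 and of -1.88 and -0.50 in mice 2 and 3. In mouse 1 Col18a1 had 1 count.

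**Figure D3:**
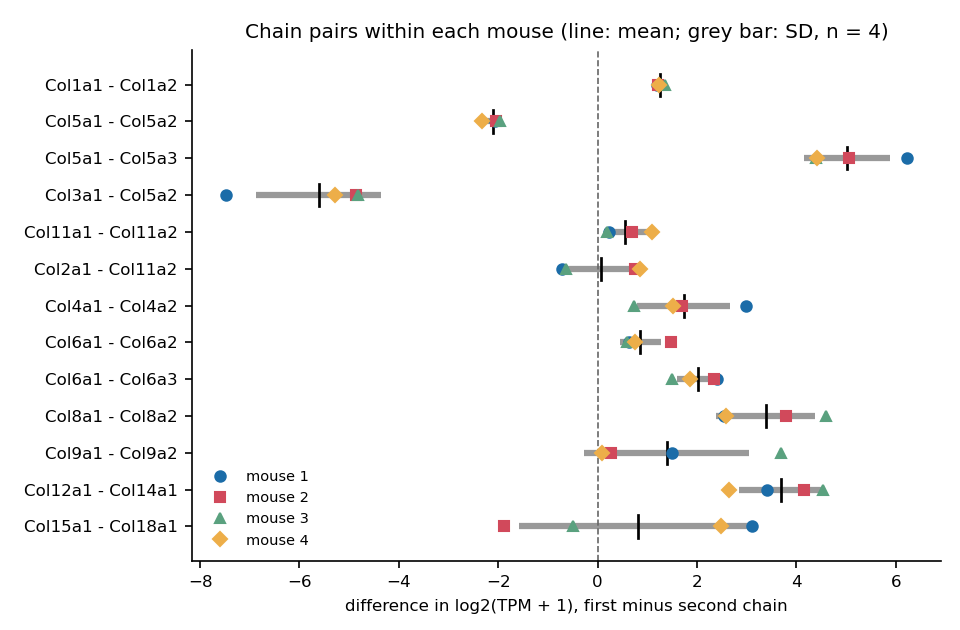
Difference in log2(TPM + 1) between the chains of 13 pairs (x axis, first minus second chain), with 1 symbol per mouse, a line at the mean and a grey bar for 1 SD to each side (n = 4). The 4 symbols of Col1a1 - Col1a2 lie between 1.20 and 1.35, whereas those of Col15a1 - Col18a1 lie on both sides of 0.

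Ordered by median level, most neighbouring chains did not keep their order in every mouse. Of the 24 pairs of neighbours in the order of the 25 expressed chains, 6 kept their order in every mouse: Col1a1 above Col1a2, Col1a2 above Col5a2, Col5a2 above Col11a1, Col11a2 above Col5a1, Col5a1 above Col22a1 and Col6a1 above Col6a2. These orders are for merged exon lengths, and that of Col6a1 and Col6a2 did not hold with the longest transcript as gene length. The other 18 neighbours changed places in at least 1 mouse. The spread between mice was close to that of all genes of like level from 100 TPM upward, and larger from 1 to 100 TPM. For the 2 chains with a mean above 1000 TPM the median coefficient of variation was 15.6%, against 17.4% for all genes of that level. The median coefficient of variation was 25.1% for the 5 chains with a mean of 100 to 1000 TPM (23.5% over all genes of that level), 55.3% for the 10 chains from 10 to 100 TPM (42.4%), and 107% for the 10 chains from 1 to 10 TPM (89.6%).

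Many low chains appeared in single libraries. At least 10 counts were found for 23 chains in 4 mice, for 3 chains in 3 mice, for 2 chains in 2 mice and for 9 chains in 1 mouse, and 7 chains did not reach 10 counts in any. Of the 9 chains found in 1 mouse, 5 were found in mouse 4 (Col4a4, Col4a5, Col6a4, Col14a1 and Col28a1), 2 in mouse 3 (Col7a1 and Col26a1), 1 in mouse 2 (Col6a5) and 1 in mouse 1 (Col9a3). Among all protein-coding genes 9.53% were found in 1 mouse, and among the collagen chains 20.5%. In 4 mice 52.3% of chains and 35.2% of protein-coding genes were found, and in none 15.9% and 39.9%. Of those with at least 10 counts in any mouse, 62.2% of chains and 58.7% of protein-coding genes had them in all 4. The library of mouse 4 was the shallowest of the 4. Col26a1 shares stretches of 100 to 243 bases at 95% identity or more with 40 other genes, and Col6a5 shares 572 bases with Col6a6, so that reads of these chains are uncertain. Of the expressed chains, Col25a1 shares 113 bases with Ftsj3 and Col27a1 shares 106 bases with Polg2 at such identity. Exons of 13 chains overlap those of other genes, by at most 6.07% of their bases.

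Markers of other cells were set beside the cartilage chains. Of 7 chondrocyte markers that are not collagens (Acan, Sox9, Matn1, Matn3, Hapln1, Snorc and Cytl1), 3 had a median above 1 TPM and none was above 1 TPM in every mouse. Among protein-coding genes these shares were 44.2% and 30.1%. The 7 markers summed to 7839, 4.97, 2.48 and 20.0 TPM, with Cytl1, a secreted protein of cartilage, at 7649 TPM in mouse 1. Acan, the core proteoglycan of cartilage, had 2.64, 0, 0 and 1.19 TPM, and Matn1 had no counts. The cartilage chains summed to 986 TPM in mouse 2, where these markers summed to 4.97 TPM, and to 967 TPM in mouse 1, where they summed to 7839 TPM. Col9a3 had counts in mouse 1 alone, where Snorc, Matn3 and Cytl1 were highest as well, and the part of chondrocyte transcripts in its level was not tested.

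The classes that were higher in mice 2 and 3 were set beside the niche stroma list. Its 5 genes (Cxcl12, Lepr, Kitl, Foxc1 and Ebf3) were all above 1 TPM in every mouse. They summed to 1048, 4633, 2369 and 1231 TPM, mostly from Cxcl12. Cxcl12 and Kitl were higher in mice 2 and 3 than in mice 1 and 4. Lepr, Foxc1 and Ebf3 were highest in mouse 2 but lower in mouse 3 than in mouse 4 (44.5 against 64.8, 20.6 against 25.3 and 6.87 against 12.9 TPM). In mice 1 to 4 beaded filament chains summed to 92.6, 251, 213 and 108.2 TPM and network chains to 18.9, 114, 65.0 and 17.3 TPM. The adipocyte list (Adipoq, Lpl, Cebpa and Pparg) summed to 199, 962, 439 and 234 TPM in the same mice. Adipoq and Cebpa were higher in mice 2 and 3 than in mice 1 and 4. Lpl was lower in mouse 3 than in mouse 4 (33.9 against 44.5 TPM), and Pparg was above 1 TPM in mouse 2 only. The sum of the osteoblast list had another order, with 108982, 133635, 77792 and 168024 TPM, which was that of Bglap, its highest gene. The other genes of this list differed from it. Ibsp had 11147, 13101, 20907 and 10570 TPM, Sp7 339, 158, 255 and 151 TPM, and Alpl 892, 550, 963 and 573 TPM. The part of these lists in the levels of the collagen chains was not tested. The pericyte and smooth muscle list (Acta2, Myh11, Rgs5 and Cspg4) summed to 2.96, 29.6, 2.08 and 11.6 TPM. Of its genes Rgs5, a pericyte marker, had 29.1 TPM in mouse 2, where Col4a1 and Col4a2 were highest. It had 2.94 TPM in mouse 4 and no counts in mice 1 and 3. Cspg4 went the other way, with 2.96, 0.558, 2.08 and 7.49 TPM in mice 1 to 4 and thus its lowest value in mouse 2. Myh11 had 1.17 TPM in mouse 4 only, and Acta2 had no counts. The 4 endothelial markers (Pecam1, Cdh5, Kdr and Emcn) had a median of at most 0.14 TPM each. Of the fibroblast list, set beside Col3a1 and Col14a1, Dpt and Pi16 had at most 4 counts in any mouse, Cd34 had 1.32 TPM in mouse 3 and no counts elsewhere, and Ly6a had the values given above, so that the list summed to 0.0472, 8.95, 1.34 and 11.8 TPM. The tendon list (Scx, Tnmd and Mkx) summed to 7.87, 18.8, 47.6 and 26.4 TPM, the Schwann cell list to at most 1.20 TPM and the neutrophil list to 3.22 to 19.6 TPM.

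The enzymes that process collagen were broadly expressed beside the chains. Of 31 processing genes, 27 had a median above 1 TPM and 24 were above 1 TPM in every mouse. Among protein-coding genes these shares were 44.2% and 30.1%. The 31 genes summed to 6569 ± 1675 TPM (SD, n = 4). P4hb, a subunit of the prolyl hydroxylase that stabilises the helix, had 2041, 872, 1571 and 1000 TPM, and P4ha1, its catalytic partner, had 322, 123, 245 and 158 TPM. Serpinh1, the collagen chaperone HSP47, had 707, 623, 441 and 474 TPM. Pcolce, an enhancer of the protease that trims fibrillar procollagen, had 1464, 1116, 1612 and 942 TPM, and the protease Bmp1 had 112 to 199 TPM. Lox, which cross-links fibrils, had 497, 341, 362 and 358 TPM. P4ha3, Tll1, Tll2 and Colgalt2 had medians at or below 1 TPM.

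Of 11 collagen receptor genes, 7 had a median above 1 TPM and 6 were above 1 TPM in every mouse. Among protein-coding genes these shares were 44.2% and 30.1%. The receptor genes summed to 273 ± 23.1 TPM (SD, n = 4). Itgb1, the shared β chain of collagen-binding integrins, had 175, 214, 175 and 170 TPM. Of its α partners, Itga11 had 13.8 to 24.95 TPM, Itga10 8.24 to 24.1 TPM and Itga1 0.26 to 8.64 TPM, and Itga2 had 15 counts in mouse 1 and none elsewhere. Ddr2, a receptor tyrosine kinase for fibrillar collagen, had 6.00 to 27.9 TPM, and Mrc2, which takes up collagen fragments, had 27.0 to 37.9 TPM. Gp6 and Lair1, collagen receptors of platelets and leukocytes, had no counts.

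Set against the triplet structure, the chains with the longest runs were all expressed, and chains with shorter runs ranged from 0 to 85.5 TPM in median level. Each of the 11 chains with a run of more than 200 triplets was fibrillar and had a median above 1 TPM. Among the 33 chains with shorter runs, Col22a1 reached the highest median (85.5 TPM, longest run 113 triplets), and Col9a2 and Col9a3, with runs of 113 triplets too, had medians of 0. This is a description of the family, and no test was made.

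**Figure D4:**
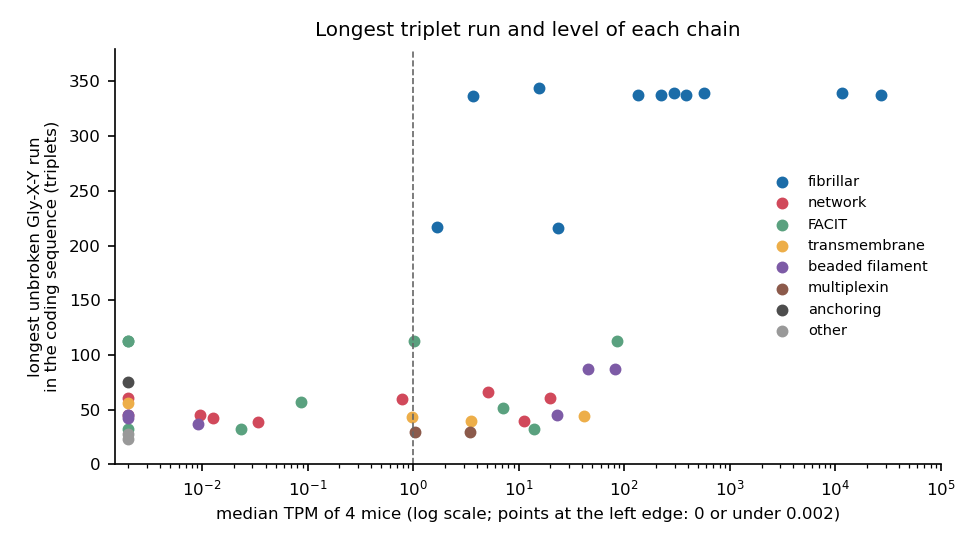
Longest unbroken Gly-X-Y run of each of the 44 chains in triplets (y axis) against its median level in TPM on a log scale (x axis), with colours for the structural classes and the dashed line at 1 TPM. Fibrillar chains lie at 216 triplets or more and all to the right of the line, and the other classes lie at 113 triplets or fewer on both sides of it.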

How the data were processed

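RNA-seq was analysed from 4 libraries of sorted MSCs, 1 per mouse. The authors mapped paired reads with STAR 2.7.10 (GRCm39), assigned unique pairs to genes by their exons using featureCounts from Subread 1.6.5 (versions from the submitters' processing notes), and deposited unnormalized counts. The listed options include no strand setting, so counting was taken as unstranded. The deposited counts were converted to TPM in Python 3.11.15 with pandas 2.3.3, using merged exon lengths of GENCODE M21 (GRCm38), joined by gene identifier. For 4855 genes no length was found, and they have no TPM. Coordinates are those of GRCm38, and none were converted. A chain was called expressed at a median above 1 TPM. Differences within mice were taken as log2(TPM + 1) and tested by exact two-sided sign-flip permutation with Benjamini-Hochberg adjustment, over 10 class pairs and 13 chain pairs. The spread between these 4 libraries covers mice and handling together.

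At these depths 3 counts correspond to 0.0689 to 0.132 CPM, and floors cover counting error only. Near copies were searched with BLAST 2.17.0 (identity of at least 95% over at least 100 bases). TMM factors were from edgeR 4.0.16. The code was tested on simulated data. Values in every mouse are given for the 2 highest chains of each class, chains with a median above 100 TPM, chains of the compared pairs past the cutoff, and chains above 1 TPM in some but not all mice. The members, classes, lists and pairs were chosen with earlier results of these data known. The 3 pairs with no chain above the cutoff were not compared. Alternatives were other lengths, denominators, cutoffs, class summaries, a pseudocount of 0.1, and leaving out each mouse.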

Additional observations from a re-analysis of the deposited data

Results flagged for a closer look

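For 65 values compared over the 4 mice, the gap between the highest or lowest mouse and its nearest neighbour was divided by the whole range. In 11 of them this share was above the 95% limit of Dixon's test, where chance gives about 3.25 of 65. For 6 of the 11 the gap is the whole range because counts were found in 1 library only, so the number 11 is not to be read against that chance value. Col11a2 stood apart in mouse 1 (345 TPM against 214 to 228, a gap of 0.891 of the range), and Col4a1 in mouse 2 (63.7 TPM against 7.25 to 14.4, a gap of 0.873). The other 9 were chains at low level or the share of a single low chain. Col9a1 was highest in mouse 3 (gap 0.855), Col19a1 in mouse 4 (gap 0.899) and Col4a5 in mouse 4 (gap 0.990). Col9a3 had counts in mouse 1 only, Col26a1 and Col7a1 in mouse 3 only, and Col28a1 and Col6a4 in mouse 4 only, and for each of these the gap was 1, the whole range. The share of anchoring chains, which is that of Col7a1, had a gap of 1 as well.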

How the results depend on the processing

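Of 594 values recomputed under the alternatives, 526 were counted as unchanged, 60 moved by more than 1 SD between mice and 8 changed sign. Differences were judged by their sign alone, so their size could still shift. Col1a1 minus Col1a2 went from 1.25 ± 0.0698 to 0.178 with the longest transcript as gene length (log2). The 526 include 12 counts of expressed chains, which have no SD. The number of expressed chains stayed between 19 and 27. The collagen share of TPM was 4.57% with the longest transcript as gene length, 14.1% without gene length and 6.37% without the 10 highest genes in the denominator. Without Col1a1 and Col1a2 the shares were by construction 80.5% fibrillar, 44.1% cartilage, 8.20% beaded filament, 5.98% FACIT, 2.62% network, 2.42% transmembrane, 0.254% multiplexin, 0.0200% other and 0.0060% anchoring. Without gene length the cartilage share was 2.71%, network minus transmembrane was 0.34 and Col6a1 minus Col6a2 was -0.051 (log2). By the median chain of each class, FACIT minus transmembrane was -1.22 and transmembrane minus cartilage 0.10, and without the highest chain of each class network minus transmembrane was 1.94. Leaving out 1 mouse at a time gave -0.68 to 0.51 for network minus transmembrane and -0.21 to 0.32 for Col2a1 minus Col11a2. What causes these shifts was not tested. Tests between chains are within mice, and with 4 mice the exact sign-flip permutation test cannot pass 0.05, chains under 1 TPM can be missed in 100 cells, and lengths from another annotation than that of the counts limit comparisons between chains more than those between mice.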
